A study of Saccharomyces cerevisiae with 21 samples.

Results

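The genes described here encode the last steps of respiration and ATP synthesis in the budding yeast Saccharomyces cerevisiae: subunits of complex III (the cytochrome bc1 complex, QCR genes), subunits and assembly factors of complex IV (cytochrome c oxidase, COX genes), and those of the mitochondrial ATP synthase (ATP genes). They were chosen by name, as every row whose symbol starts with COX, QCR or ATP directly followed by a digit and whose mean FPKM over the course was at least 1. FPKM are fragments scaled to transcript length and library size. The name matched 49 of the 7126 rows of the table, and 44 rows passed the minimum. The other 5, COX1, COX2, COX3, ATP6 and ATP8, are encoded in mitochondrial DNA and were listed at 0 in all 21 libraries. So were all 45 mitochondrial loci of the table, and the zeros do not show that these 5 genes were silent. The 44 genes comprise 28 structural subunits (6 of complex III, 9 of complex IV, 5 of the F1 head and 8 of the F0 and stalk parts of ATP synthase) and 16 assembly factors (10 for complex IV and 6 for ATP synthase). This split follows their textbook roles. Complex III subunits outside the name rule, such as COR1, CYT1 and RIP1, are not among them.

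The data are 21 mRNA libraries, 1 for each 10 min from 0 to 200 min, from cells labelled as a cell-cycle-arrested clb1-6 mutant, with no replicate at any time. The BF264-15D MATa cells carried bar1::hphMX4 and arg4, cyclin disruptions written as clb1::URA3, clb2::LEU2 and clb3::TRP1 together with clb4::HIS2, clb5::ARG4 and finally clb6::ADE1, and PGAL1-CLB1::LEU2, a mitotic cyclin gene on the galactose-inducible GAL1 promoter. Cells grown in YEPGalactose were arrested in G1 by alpha-factor, the mating pheromone, at 30 ng/ml for 160 min and released into YEPDextrose at 30 °C. All libraries share this genotype and history, so nothing here separates the mutant from other cells, and loss of pheromone cannot be told apart from the change of sugar. Summed FPKM of a library lay between 1212671 and 1911174, of which the 44 genes made up 1.70% to 2.33%. The depth is unknown, since the values used here carry no read counts. In bulk RNA, fewer cells that express a gene and less of its RNA per cell cannot be told apart. The a-factor genes MFA1 and MFA2 were abundant and MF(ALPHA)1 stayed between 0.154 and 1.14 FPKM, beside a MATa label. Loci of at most 300 bp stood apart from other loci most in the libraries of 110, 180 and 190 min, and several results below are also given without these libraries.

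Complex III passes electrons from ubiquinol to cytochrome c, complex IV passes them on to oxygen, and both move protons across the inner membrane. ATP synthase lets the protons flow back through its F0 part and uses the turning of the stalk to make ATP in the F1 head. Most subunits are made in the cytosol and imported, a few core subunits are made inside mitochondria, and assembly factors insert heme and copper, stabilise new subunits or translate the mitochondrial mRNAs without staying in the finished enzyme. In yeast grown on glucose many of the nuclear genes are expressed less than on respiratory carbon sources. The Hap complex, which binds CCAAT sequences, activates many of them, and the RNA-binding protein Puf3 binds TGTANATA sites in the 3′ ends of many mRNAs for mitochondrial proteins, COX17 among them.

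These sequence features divided the 44 genes by role. CCAAT stood on either strand of the 300 bases before the start codon in 27 of 28 structural genes (96.4%, all but COX4), 8 of 16 assembly genes (50%) and 41.8% of 6007 nuclear coding genes. The longer form ACCAATNA, on either strand and containing CCAAT, stood in 13 of 28 structural genes (46.4%), in 1 of 16 assembly genes (6.25%, COX20) and in 5.21% of all. TGTANATA, on the coding strand within 200 bases after the stop codon, was found in 4 of 28 structural genes (14.3%), in 13 of 16 assembly genes (81.2%) and in 14.1% of all. A match describes these letters and shows no binding. The promoter stretches below are from the 7 genes with ACCAATNA whose mRNA was lower late in the course, and from COX20, the assembly gene that has it. In all 14 genes with ACCAATNA, 7 were lower late, 2 were higher (COX20 and COX5B) and 5 were not called. Of all loci tested 26.7% were lower late and 31.8% higher. Sequences are from the R64 genome in RefSeq, 5′ to 3′ on the gene's strand, with the motif in capitals and the distance counted from its first base to the start codon. In COX6 and ATP19 the capitals are the motif as it reads on the opposite strand.
COX12, chrXII:225345-225404, minus strand, 206 bases before the start: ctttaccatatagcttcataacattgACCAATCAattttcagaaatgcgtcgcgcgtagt
COX13, chrVII:144569-144628, plus strand, 213 bases before the start: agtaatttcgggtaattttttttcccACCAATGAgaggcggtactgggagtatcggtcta
COX8, chrXII:910134-910193, minus strand, 202 bases before the start: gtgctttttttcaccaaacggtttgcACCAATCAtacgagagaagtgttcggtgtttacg
COX6, chrVIII:209462-209521, plus strand, 217 bases before the start: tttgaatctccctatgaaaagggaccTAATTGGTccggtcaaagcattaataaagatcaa
QCR7, chrIV:1496697-1496756, minus strand, 182 bases before the start: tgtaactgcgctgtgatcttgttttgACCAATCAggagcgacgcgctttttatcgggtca
ATP17, chrIV:1228355-1228414, plus strand, 230 bases before the start: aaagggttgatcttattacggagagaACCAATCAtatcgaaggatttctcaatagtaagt
ATP19, chrXV:185276-185335, plus strand, 136 bases before the start: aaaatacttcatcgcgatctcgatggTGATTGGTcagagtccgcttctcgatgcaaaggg
COX20, chrIV:927047-927106, minus strand, 170 bases before the start: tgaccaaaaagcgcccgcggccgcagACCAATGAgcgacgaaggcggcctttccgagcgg

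The next stretches, from after the stop codon, are shown because these 6 assembly genes were higher late in the course. Of all 17 genes with TGTANATA, 6 were higher late, 3 were lower (ATP1, ATP19 and COX8) and 8 were not called, where 31.8% of all loci were higher and 26.7% lower. Capitals mark TGTANATA, and the distance is counted from the last base of the coding sequence.
COX17, chrXII:131158-131181, minus strand, 32 bases after the end: ccatttctTGTATATAtaagaata
COX17, chrXII:131113-131136, minus strand, 77 bases after the end: atactaccTGTAAATAtgtgcgat
COX20, chrIV:926223-926246, minus strand, 55 bases after the end: ttttcctaTGTATATAtgcaacat
COX23, chrVIII:342243-342266, plus strand, 131 bases after the end: caatggtaTGTAAATAagcaagct
COX23, chrVIII:342294-342317, plus strand, 182 bases after the end: gaatttttTGTATATAtctctaca
ATP11, chrXIV:43253-43276, minus strand, 56 bases after the end: atgacaccTGTAAATAaaatacgt
ATP12, chrX:87495-87518, minus strand, 73 bases after the end: aaaatttcTGTAAATAaacatgat
ATP23, chrXIV:667345-667368, minus strand, 50 bases after the end: tagacgctTGTAAATAataaaaaa
ATP22, the other assembly gene that was higher late, has no TGTANATA in its window. Within each role the genes with and without a motif can be set side by side: structural genes had a median late minus early difference of -0.48 with TGTANATA (n = 4) and -0.35 without it (n = 24), assembly genes 0.19 with it (n = 13) and 0.52 without it (n = 3). For ACCAATNA the structural medians were -0.32 with it (n = 13) and -0.41 without it (n = 15). These are log2 differences defined below, given as a description.

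Structural genes were expressed far above assembly genes. Mean FPKM over the 21 libraries had a median of 732 among structural genes and 26.5 among assembly genes. It was above 100 in 27 of 28 structural genes, all but COX5B (43.3), and under 100 in 14 of 16 assembly genes, all but COX17 (357) and COX14 (328). Subunits of a complex are needed in fixed proportions, but their mRNA levels were not equal. Among complex III genes the highest mean, 3157 FPKM for QCR9, was 19.5 times the lowest, 162 for QCR6. Complex IV genes ran from COX5B to COX7 (3057), a ratio of 70.5 that rests on COX5B (11.5 without it), and ATP synthase subunits from ATP1 (232) to ATP15 (3097), a ratio of 13.3. Short genes were at the top: COX7, ATP15 and ATP18 (2725) have 180 to 189 bp, and the FPKM of such short transcripts is sensitive to the length used in the scaling. Assembly genes were spread from COX23 (5.98) to COX17 for complex IV, and from ATP10 (12.2) to ATP11 (65.8) for ATP synthase.

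**Figure D1:**
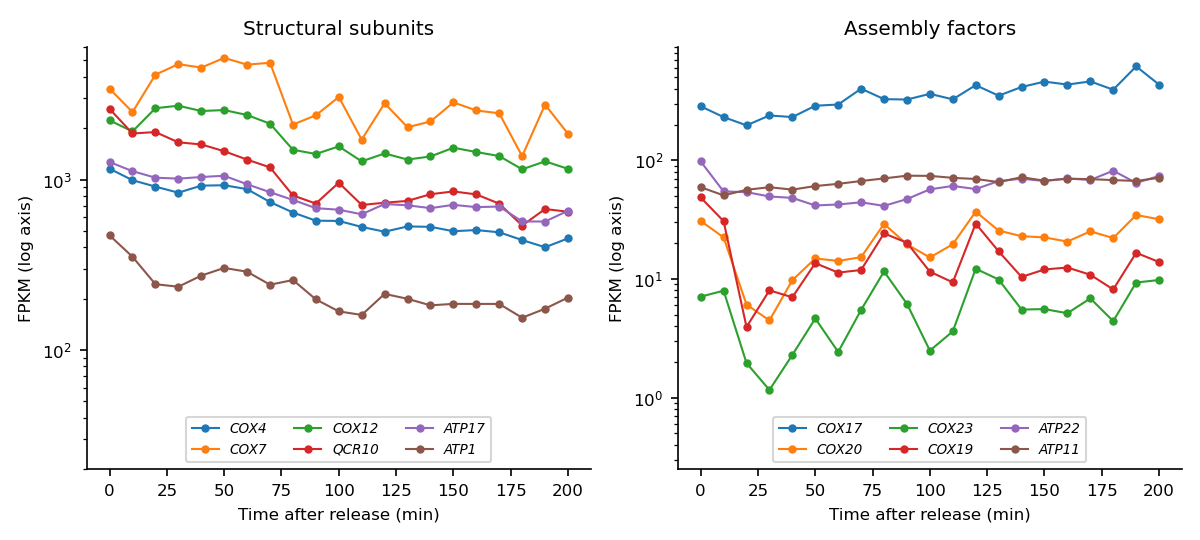
FPKM of 6 structural subunits (left) and 6 assembly factors (right) in each of the 21 libraries (points, joined by lines) against time after release in minutes, on log axes with different ranges. COX4 ends at 452 after a start at 1159, and COX20 ends at 31.8 after a low of 4.47 at 30 min.

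Change over time was tested with limma on log2(FPKM + 1) as a smooth curve through all libraries, and a gene was called at an adjusted p under 0.05 and a fitted range of at least 1, which is a 2-fold change between the highest and lowest fitted values. By this rule 15 of 44 genes were called, where 44.8% of all 6198 loci tested were called. Without the minimum range 40 of 44 passed, beside 82.7% of all loci. The calls were 3 of 6 complex III genes, 6 of 9 complex IV subunits, 4 of 10 complex IV assembly factors, 2 of 5 F1 genes, none of 8 F0 and stalk genes and none of 6 ATP synthase assembly factors. At an unadjusted p under 0.05 with no minimum range, 7 of 8 F0 and stalk genes and 6 of 6 ATP synthase assembly genes passed. The libraries come from successive times of the same culture and are not independent replicates, so all p-values here are too small. Without the 0 and 10 min libraries the count of members called was 9. The count over all loci also fell, from 2775 to 1728.

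In complex III the small subunit gene QCR10 (YHR001W-A, chrVIII:107826-108122) fell through most of the course. Its levels at 0, 20, 50, 80, 110 and 200 min were 2599.8, 1901, 1467, 807, 709.9 and 647 FPKM, with a fitted range of 1.94 (adjusted p = 6.19e-08). QCR2 (YPR191W, chrXVI:919381-920487), a core subunit, and QCR6 (YFR033C, chrVI:224326-224769), the acidic hinge subunit, had another shape, high at the start and low within 30 min. QCR2 had 308 FPKM in the arrested cells, 127 after 30 min and 230.03 after 50 min, then lay between 145 and 234 from 80 min on (fitted range 1.10, adjusted p = 0.00547). QCR6 had 296 in the arrested cells and 121 after 30 min, with a low of 87.6 at 100 min between 197 at 80 min and 207 at 120 min (fitted range 1.53, adjusted p = 0.0134). Without the 0 min library neither QCR2 (adjusted p = 0.339) nor QCR6 (0.178) passed. QCR2 was also not called without the 10, 20 or 30 min library (fitted ranges 0.79, 0.95 and 0.85), nor QCR6 without 10 min (adjusted p = 0.0876).

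Among complex IV subunits COX4 (YGL187C, chrVII:149704-150171), the zinc-binding subunit, fell through the course and was called under every single omission of a library. Its level was 1159 FPKM at the start and lowest at 190 min with 401, and its fitted range was 1.38 (adjusted p = 2.04e-09). COX12 (YLR038C, chrXII:224921-225172), subunit VIb, was highest at 30 min (2714) and lowest at 180 min (1149), with a range of 1.20 (adjusted p = 6.08e-07). COX7 (YMR256C, chrXIII:778945-779127), subunit VII, reached 5177 at 50 min and had its low of 1372 at 180 min (range 1.30, adjusted p = 0.00383). These genes differ in when they started down: COX4 was at its peak in the arrested cells, COX12 and COX7 only after the release. COX9 (YDL067C, chrIV:334217-334396), subunit VIIa, had the same shape as QCR2 and QCR6, high, low by 30 min and high again at 80 min. Its levels at 0, 30, 80, 100 and 120 min were 1953, 668, 1391, 566 and 1351 FPKM (fitted range 1.60, adjusted p = 0.0136). Its call was lost without the 0 min (adjusted p = 0.273), 10 min (0.0949) or 30 min library (0.0579).

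In ATP synthase the genes of the catalytic F1 subunits were called, and the F0 and stalk genes stayed under the 2-fold minimum. ATP1 (YBL099W, chrII:37053-38690), the alpha subunit, had 470.4, 243, 303 and 155 FPKM at 0, 20, 50 and 180 min (range 1.40, adjusted p = 1.27e-06). ATP2 (YJR121W, chrX:647607-649142), the beta subunit that forms the catalytic sites with alpha, had 1007, 605, 634 and 418 at the same times (range 1.30, adjusted p = 2.96e-06). Without 0 min both ranges were under the minimum (0.87 and 0.91). With libraries rescaled to the same sum of FPKM the range was 1.03 for ATP1 and 0.94 for ATP2, which was then not called. The stalk and F0 gene with the largest range was ATP17 (YDR377W, chrIV:1228611-1228916), subunit f, which had 1267 FPKM at the start and 567 after 190 min, with a range of 0.998 that sits just under the minimum (adjusted p = 9.25e-08). It was called in 10 of 21 single omissions of a library. ATP19 (YOL077W-A, chrXV:185438-185644), subunit k, was next at 0.94 (adjusted p = 0.0065), and was called without the 120, 140 or 200 min library, with ranges up to 1.06. ATP20 (subunit g) followed at 0.86. The smallest ranges of this class were those of ATP7 (subunit d), 0.36 with values between 612 and 801 FPKM, and ATP5, 0.45 with values between 427 and 609. ATP5 encodes the subunit that links F1 to the peripheral stalk.

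The 4 complex IV assembly genes that were called included COX19 and COX20, which had the 2 largest fitted ranges of all 44. This ranking of low genes depends on the 1 added to FPKM. With 10 added, QCR10 had 1.93, COX19 1.87, COX5B 1.86 and COX20 1.48. COX19 (YLL018C-A, chrXII:108676-108972) and COX23 (YHR116W, chrVIII:341665-342120) encode small twin CX9C proteins of the intermembrane space, COX20 (YDR231C, chrIV:926293-926910) a chaperone of Cox2, and COX17 (YLL009C, chrXII:131205-131414) the copper chaperone for the enzyme. At 0, 20, 80, 100, 120 and 200 min COX19 had 48.6, 3.94, 24.2, 11.5, 29.3 and 13.9 FPKM (fitted range 2.78, adjusted p = 0.0124). At 0, 30, 80, 100, 120 and 200 min COX20 had 30.8, 4.47, 29.1, 15.2, 36.9 and 31.8 (range 2.33, adjusted p = 0.000187). At those times COX23 had 7.09, 1.16, 11.6, 2.49, 12.2 and 9.79 (range 2.15, adjusted p = 0.0173). The 3 courses have their low points at 20 or 30 min and their later peaks at 80 and 120 min. COX17 lacked the high start: it was lowest at 20 min (197), and highest at 190 min (618), with a range of 1.17 (adjusted p = 1.86e-05). COX19 was not called without 0 min (adjusted p = 0.248). COX23 was not called without 30 min (0.0882) or without the libraries of 110, 180 and 190 min together (0.0546). With 10 added to FPKM its range was 0.84, under the minimum. Of the ATP synthase assembly genes ATP22 (YDR350C, chrIV:1176120-1178174), needed to translate the mitochondrial ATP6 mRNA, had the largest range at 0.99 (adjusted p = 1.58e-05), and was called without the 10, 40 or 70 min library, with ranges up to 1.16. Its highest value was that of the arrested cells (97.7) and its lowest that of 80 min (41.3), and 73.8 closed the course. ATP10 (YLR393W, chrXII:907079-907918), which assists assembly of F0, followed with 0.82 (adjusted p = 0.0101) and values from 7.66 to 18.1.

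**Figure D2:**
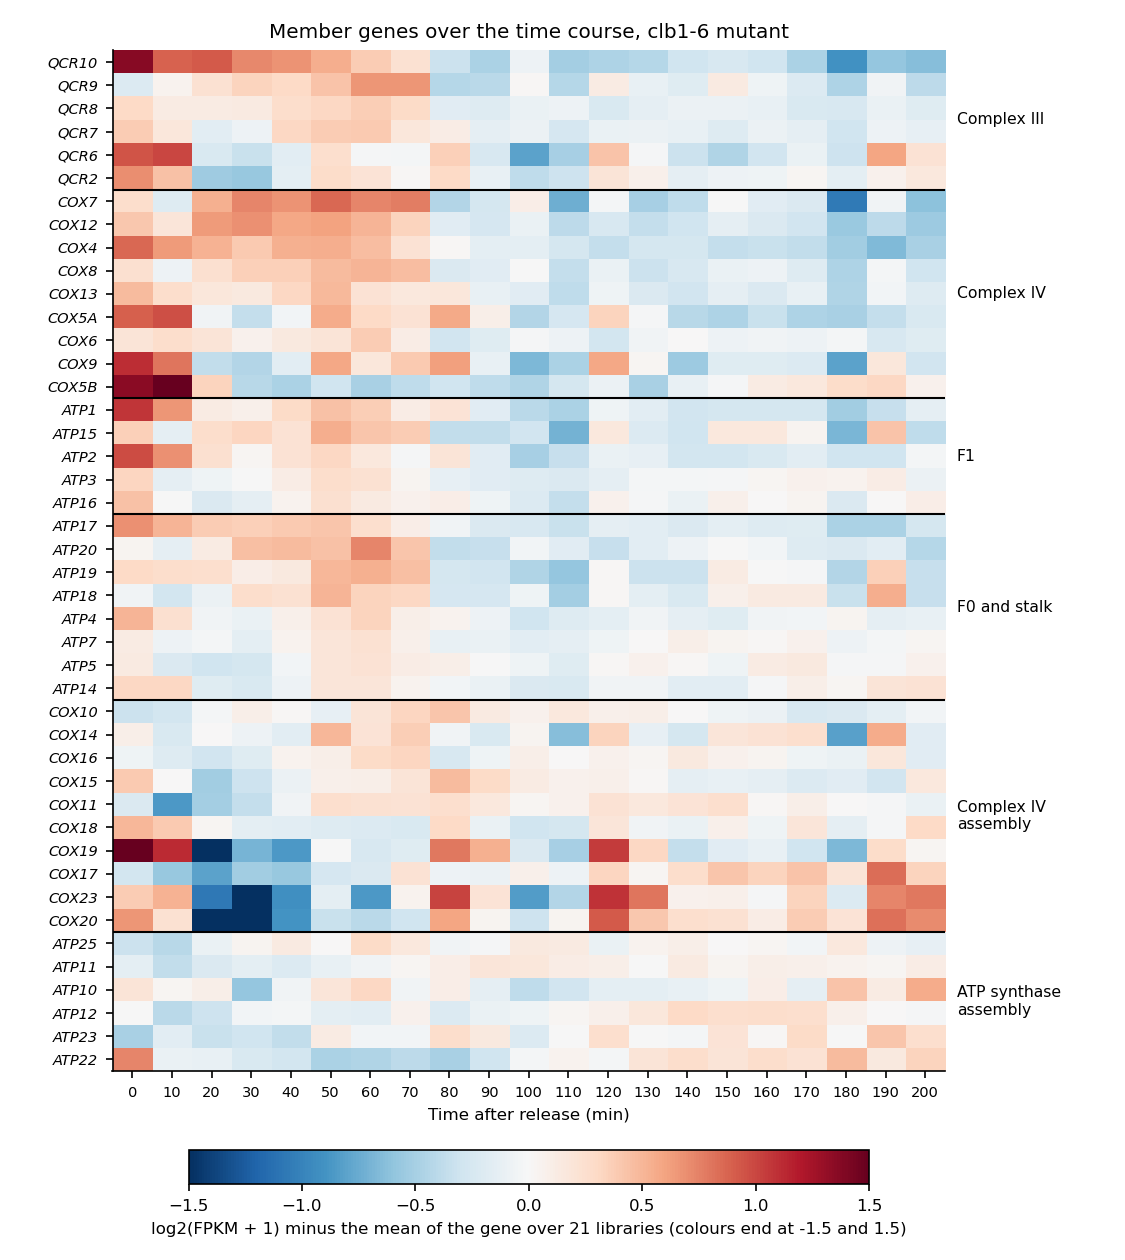
Each row is 1 of the 44 genes and each column 1 library by time in minutes; colour gives log2(FPKM + 1) minus the gene's mean over 21 libraries, from -1.5 (blue) to 1.5 (red). Structural genes are mostly red up to 70 min and mostly pale or blue afterwards, while COX17, COX20 and COX23 are blue at 20 to 40 min and red at 190 and 200 min.

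The time of the extreme values summarises this difference. The highest value fell at 0 or 10 min in 14 structural genes, at 20 to 70 min in 13 and at 80 min or later in 1, ATP18. Their lowest value fell at 100 min or later in 23 of 28, most often at 180 min (11 genes) or 110 min (5 genes), and in 21 of 28 with the libraries of 110, 180 and 190 min left out. Of the assembly genes 11 of 16 were highest at 80 min or later and 13 of 16 were lowest between 0 and 40 min, 10 and 13 without those libraries. These counts of times were not made over all loci. The spans from 80 min on and from 100 min on each take in most of the 21 libraries. The median structural gene stood 0.39 above its own mean at 0 min on the log2 scale, 0.43 above at 50 min, 0.08 below at 80 min and 0.34 below at 110 min. The median assembly gene stood 0.30 below its mean at 20 min, 0.18 above at 80 min and 0.14 above at 200 min. Over all loci the median stood 0.05 above at 0 min, 0.04 below at 20 min and 0.03 above at 200 min.

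The late libraries (160 to 200 min) were then compared with the early ones after release (20 to 60 min), 5 libraries each. In this comparison 16 of 28 structural genes were lower late and 1, COX5B, was higher, while 7 of 16 assembly genes were higher late and none was lower (limma, adjusted p under 0.05). At an unadjusted p under 0.05, 1 assembly gene, COX10, was lower late. Over all 44 that is 16 lower, where 26.7% of all loci were lower, and 8 higher, where 31.8% of all loci were higher; the 24 called in either direction stand beside 58.6% of all loci. The median log2 difference was -0.40 among structural genes, 0.22 among assembly genes and 0.05 over all loci. Early and late values did not overlap in 13 structural and 5 assembly genes, beside 44.0% of all loci. With each library rescaled to the same sum of FPKM the split was 10 lower and 18 higher, and the median of all loci moved to 0.32. The shares of all loci lower or higher were not counted after rescaling. The 26.7% and 31.8% are therefore no background for the rescaled counts here and below. The structural and assembly medians then were -0.11 and 0.50, and the difference between the classes, -0.62 as deposited, was -0.61. After rescaling, QCR7, QCR8, COX5A, COX6, ATP2 and ATP19 were not called (-0.03, -0.12, -0.17, -0.03, -0.11 and -0.11). The 10 genes called higher after rescaling but not as deposited were QCR2 (0.44), QCR6 (0.41), ATP5, ATP7, ATP14 and ATP16 (0.23 to 0.41), and COX11, COX16, COX18 and COX19 (0.27 to 0.78).

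**Figure D3:**
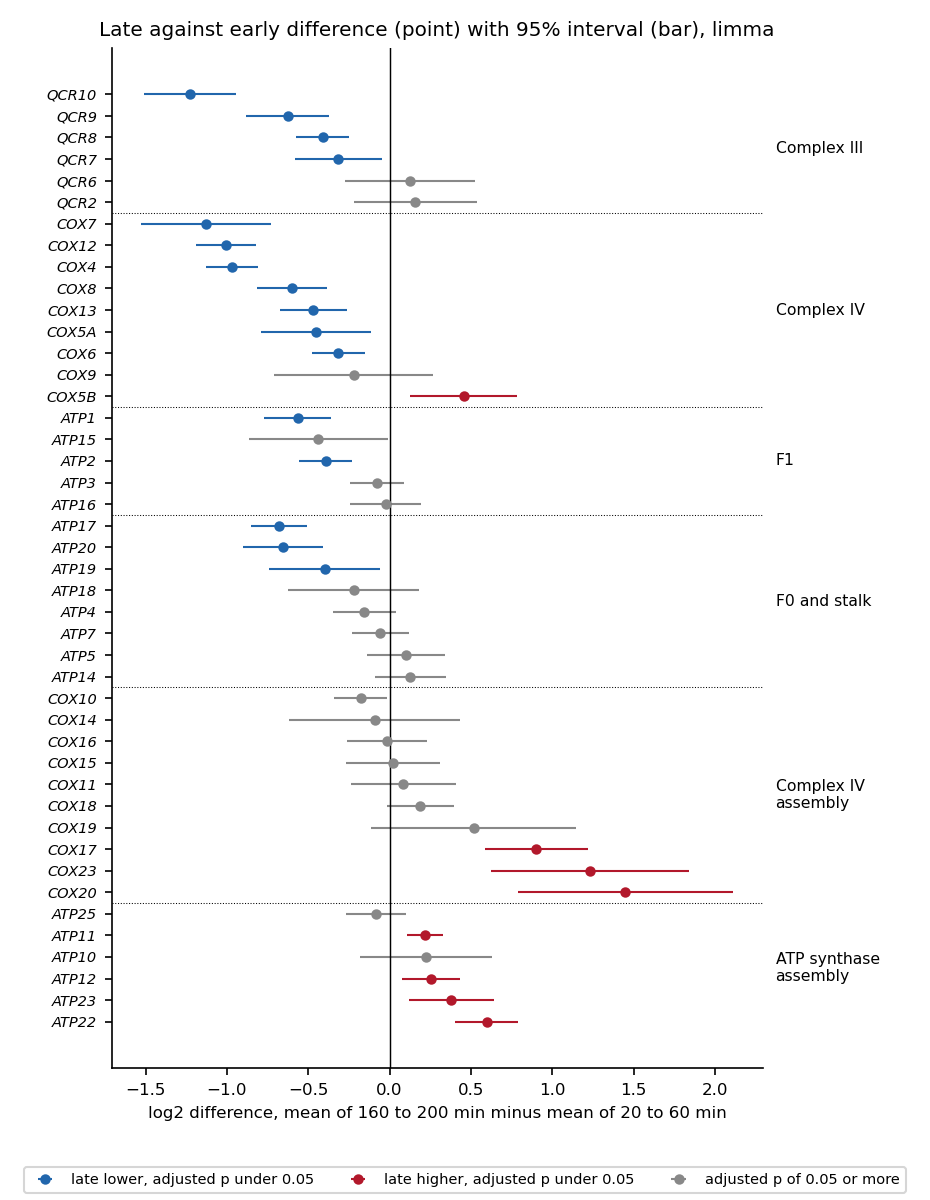
Points give the late minus early difference in mean log2(FPKM + 1) for the 44 genes, bars its 95% interval from limma, with 5 libraries in each window; blue, red and grey mark lower, higher and not called. Structural subunits sit mostly left of 0 and assembly factors mostly right; with libraries rescaled to the same sum of FPKM, 10 genes that are grey here (ATP3, ATP4, ATP7, ATP16, ATP18, COX9, ATP25, COX10, COX14 and COX16) change sign.

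Of the complex III genes 4 of 6 were lower late, and with libraries rescaled to the same sum of FPKM 2 were lower and 2 higher. QCR10 had 1901, 1655, 1608, 1467 and 1309.8 FPKM in the 5 early libraries and 819, 722, 537, 672 and 647 in the 5 late ones, in order of time. All late values were under all early ones, and the log2 difference was -1.23 (SE 0.13, adjusted p = 2.83e-05). QCR9 (YGR183C, chrVII:859063-859476), a small subunit of the complex, had 3598, 3855, 3769.8, 4145 and 4866 early and 2937, 2655, 2219, 2961 and 2346 late, a difference of -0.63 (SE 0.11, adjusted p = 0.000964). Again the windows did not overlap. QCR8 differed by -0.41 and QCR7, whose windows overlapped, by -0.31, with adjusted p = 0.000723 and 0.0444. QCR7 lost the call in 8 of the 10 omissions of a window's library, without the libraries of 110, 180 and 190 min (adjusted p = 0.139) and with windows of 20 to 40 and 180 to 200 min (0.321), windows in which QCR2 passed as higher (0.44, adjusted p = 0.0456). QCR2 (0.16) and QCR6 (0.12) did not pass.

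Complex IV had the most members lower late, 7 of its 9 subunits, or 5 of 9 after the same rescaling. COX12 had 2624, 2714, 2526, 2559 and 2393 FPKM early and 1451, 1374, 1149, 1279.6 and 1156 late, a log2 difference of -1.004 (SE 0.08, adjusted p = 8.48e-06). COX4 had 909, 838, 922, 926 and 879 early and 506, 490.5, 442, 401 and 452 late, a difference of -0.97 (SE 0.07, adjusted p = 4.88e-06). In both genes every late value was below every early value. COX7 had 4128, 4759, 4541, 5177 and 4726 early and 2545, 2449.5, 1372, 2755 and 1857 late, a difference of -1.13 (SE 0.18, adjusted p = 0.000386). Its late values scatter more, with 1372 at 180 min and 2755 at 190 min, yet all are under the early ones. COX8, COX13, COX5A and COX6 differed by -0.60, -0.47, -0.45 and -0.32. COX9 (-0.22) did not pass.

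In ATP synthase 5 of 13 subunit genes were lower late and none was higher, also at an unadjusted p under 0.05 (0 of 13, limma), while with libraries rescaled to the same sum 3 were lower and 4 higher. ATP17 had 1026, 1013, 1036, 1053 and 939 FPKM early and 689, 695, 568, 567 and 656 late, a log2 difference of -0.68 (SE 0.08, adjusted p = 5.18e-05). ATP20 (YPR020W, chrXVI:599870-600217), subunit g, which takes part in joining ATP synthases into dimers, had 693, 869, 881, 865 and 1058 early and 616, 558, 546, 569 and 472 late, a difference of -0.65 (SE 0.11, adjusted p = 0.000578). The windows of both genes are apart. Of the F1 genes ATP1 had 243, 235, 273, 303 and 288 early and 186, 186, 155, 175 and 203 late (-0.57, SE 0.09, adjusted p = 0.000482), and ATP2 differed by -0.39 (SE 0.07, adjusted p = 0.00109). Their partner genes in F1, ATP3 for the rotating gamma subunit (-0.07) and ATP16 for delta (-0.02), did not pass, with 95% intervals of -0.24 to 0.09 and -0.24 to 0.20. ATP19 passed narrowly (-0.40, adjusted p = 0.0464) and lost the call in 8 of the 10 omissions of a window's library. ATP15 (-0.44) did not pass (adjusted p = 0.073), but did without the 190 min library (0.0198), without those of 110, 180 and 190 min (-0.41, adjusted p = 0.0385) and after the length correction described below (-0.37, adjusted p = 0.0148). ATP14 (0.13) passed as higher with windows of 20 to 40 and 180 to 200 min (0.31, adjusted p = 0.03). The median difference was -0.47 among complex IV subunits, -0.36 in complex III, -0.39 in F1 and -0.19 in F0 and stalk genes. The classes hold 5 to 9 genes, and their medians are a description.

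Assembly genes for both enzymes were among the 7 higher late. After rescaling to the same sum of FPKM 11 of 16 were higher, with no share of all loci counted under that scaling. COX20 had 6.08, 4.47, 9.76, 14.9 and 14.2 FPKM in the early libraries and 20.6, 25.2, 22.1, 34.6 and 31.8 in the late ones, a log2 difference of 1.45 (SE 0.30, adjusted p = 0.0019). COX17 had 197, 238, 231, 288 and 295 early and 434, 462, 393, 618 and 434 late, a difference of 0.90 (SE 0.14, adjusted p = 0.000372). Both genes had all late values above all early values. COX23 had 1.96, 1.16, 2.29, 4.64 and 2.43 early and 5.14, 6.86, 4.41, 9.33 and 9.79 late, a difference of 1.23 (SE 0.27, adjusted p = 0.003), with 4.64 at 50 min above 4.41 at 180 min. With windows of 10 to 100 and 110 to 200 min it did not pass (0.68, adjusted p = 0.0542). Beside the arrested cells the picture differs: the late means of COX20 and COX23 were 26.9 ± 6.09 and 7.11 ± 2.42 FPKM (SD, n = 5), and their values at 0 min 30.8 and 7.09. COX19, of the same protein family as COX23, differed by 0.52 and did not pass (adjusted p = 0.142).

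For ATP synthase, ATP22 had 53.9, 49.5, 48.2, 41.6 and 42.4 FPKM early and 70.2, 68.2, 81.7, 64.4 and 73.8 late, a log2 difference of 0.60 (SE 0.09, adjusted p = 0.000244) with no overlap. ATP23 (YNR020C, chrXIV:667410-668222), which processes Atp6 and assists assembly, had 21.5, 22.1, 20.95, 29.7 and 26.4 early and 27.7, 33.6, 27.2, 36.9 and 32.8 late (0.38, SE 0.12, adjusted p = 0.0181). ATP12 and ATP11, chaperones of the alpha and beta subunits of F1, were higher by 0.25 (adjusted p = 0.0199) and 0.22 (adjusted p = 0.00325). ATP11 did not pass with windows of 10 to 100 and 110 to 200 min (0.14, adjusted p = 0.0728). ATP12 did not with windows of 20 to 40 and 180 to 200 min (0.15, adjusted p = 0.264), after the length correction (0.0645), or without the 160 or 170 min library (0.0508 and 0.0522). Their clients ATP1 and ATP2 were lower in the same libraries. ATP10 (0.23) and ATP25 (-0.08) did not pass. Nor did the heme A enzymes COX10 (-0.18) and COX15 (0.02), the copper factor COX11 (0.09), or COX14, COX16 and COX18 (-0.09, -0.02 and 0.19). COX10 passed as lower with libraries rescaled by median ratio (-0.20, adjusted p = 0.0362), after the length correction (-0.23, adjusted p = 0.0174) and without the 50 min library (-0.21, adjusted p = 0.0303).

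COX5A (YNL052W, chrXIV:531725-532186) and COX5B (YIL111W, chrIX:155222-155765) encode alternative forms of subunit V, the first used in air and the second at low oxygen. Both were high at the start: COX5A had 467 FPKM at 0 min and 491 at 10 min, COX5B 103 and 118, and both changed over time (fitted ranges 1.60 and 2.17, adjusted p = 0.000669 and 3.76e-06). Without the 0 and 10 min libraries both ranges were below the minimum (0.86 and 0.75). COX5A had 242, 195, 244, 369.8 and 309 early and 199.8, 182, 179, 196 and 215 late, a log2 difference of -0.45 (adjusted p = 0.0255). COX5B had 50.2, 29.4, 28.3, 31.9 and 27.9 early and 43.2, 44.4, 48.1, 49.4 and 41.6 late, a difference of 0.46 (adjusted p = 0.0218). The COX5B value at 20 min was above every late value, and the COX5A windows overlap too. Both calls are narrow: COX5A lost it without the 60, 170 or 180 min library (adjusted p up to 0.0567) and COX5B without 30, 40 or 190 min (up to 0.0539) and after the length correction described below (0.0722). Without the libraries of 110, 180 and 190 min neither passed (0.105 and 0.115). With windows of 20 to 40 and 180 to 200 min the differences were -0.21 and 0.40 and neither passed (adjusted p = 0.200 and 0.184), and with windows of 10 to 100 and 110 to 200 min COX5B did not (0.13, adjusted p = 0.625).

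The ratio of the isoforms was highest between 50 and 80 min. COX5A exceeded COX5B 4.53 times at 0 min, 4.82, 6.65, 8.62, 11.6 and 11.1 times in the early libraries, 11.7 times at 80 min and 4.62, 4.10, 3.72, 3.96 and 5.17 times in the late ones. The mean log2 ratio of FPKM + 1 was 2.98 ± 0.52 early and 2.08 ± 0.19 late (SD, n = 5 each), a difference of -0.91 (exact two-sided permutation test, p = 0.0159, of 252 splits, where 0.00794 is the smallest p possible). The windows overlap, since 20 min had a ratio of 4.82 and 200 min of 5.17. Rescaling a library leaves the ratio of its 2 FPKM values as it is.

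**Figure D4:**
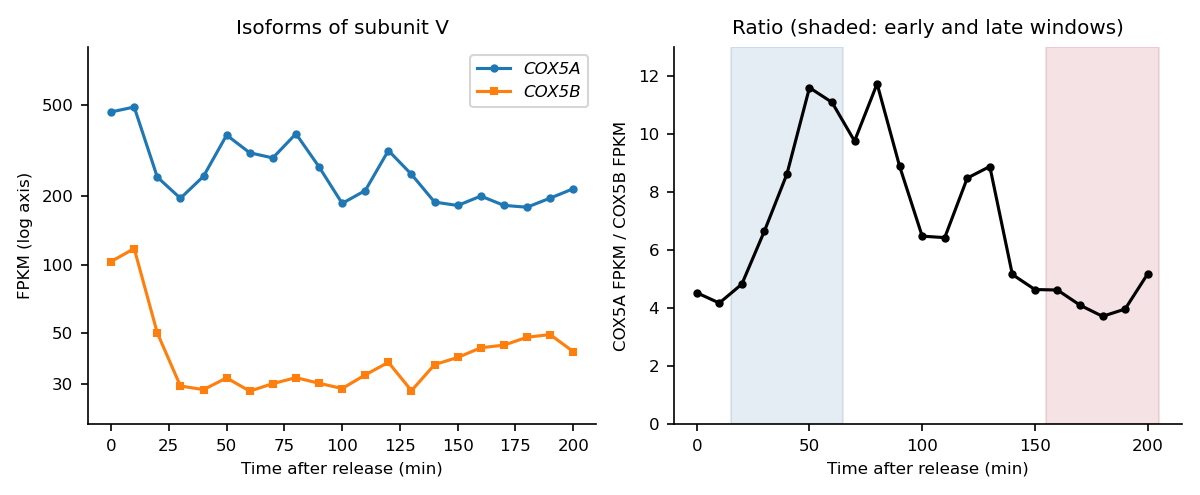
Left, FPKM of COX5A and COX5B in each library on a log axis; right, their ratio against time in minutes, with the early (20 to 60 min) and late (160 to 200 min) windows shaded. The ratio is above 11 at 50, 60 and 80 min and between 3.72 and 5.17 from 160 min on.

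Between the arrested cells at 0 min and the mean of 20, 30 and 40 min, 8 of 44 genes were at least 2-fold lower, where 18.8% of all loci were, and none was 2-fold higher, where 10.8% of all loci were. A single library at 0 min allows no test. The 8 were COX19 (-2.81 on the log2 scale), COX20 (-2.09), COX23 (-1.55), COX5B (-1.54), COX9 (-1.43), QCR6 (-1.19), QCR2 (-1.12) and COX5A (-1.04). By any amount 35 of 44 genes were lower, beside 54.3% of all loci. The 0 min library had the largest sum of FPKM, 1911174 beside 1560657 to 1727296 at 20 to 40 min. The count by any amount was not made after rescaling. The medians of structural and assembly genes were -0.32 and -0.26. QCR9 (0.49) and COX7 (0.39) were the genes with the largest difference upward.

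Several of these genes shared 2 later high points. At both 80 and 120 min 6 of 44 genes were at least 1.5-fold over their level at 100 min, where 9.34% of all loci were. They were COX23 (the smaller of its 2 log2 differences was 1.85), COX9 (1.25), QCR6 (1.16), COX19 (1.01), COX20 (0.90) and COX5A (0.77). The sums of FPKM at 80, 100 and 120 min were 1567223, 1379745 and 1611673, and the count was not made after rescaling. All 6 genes were also among the 8 lower by 2-fold after 0 min. This pattern and the next were chosen after the values were seen and have no test.

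From 70 to 80 min 6 structural genes were at least 1.5-fold lower, beside 5.39% of all loci, and 3 assembly genes were at least 1.5-fold higher, beside 7.44% of all loci. The lower ones were COX7 (from 4852 to 2103 FPKM, -1.21 on the log2 scale), QCR9 (from 4852 to 2289.5, -1.08; its coding length of 201 bp is split by an intron over 414 bp), ATP20 (-0.79), ATP15 (-0.75), ATP19 (-0.71) and COX8 (-0.68). The higher ones were COX19 (0.97), COX23 (0.95) and COX20 (0.89). Gene length moved with this step: 4 of the 6 lower genes have at most 300 bp, and 38.1% of all 333 loci of that length were 1.5-fold lower at 80 min (median -0.38), beside 8.19% of loci in the next length class and smaller shares of longer ones. After a curve over gene length was subtracted from each library, 3 members were lower and 4 were higher by that fold.

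Short transcripts as a whole stood apart by more than 0.25 in 3 libraries, low at 110 min (median deviation -0.34) and 180 min (-0.28) and high at 190 min (0.34). Smaller deviations at 50 min (0.22), 70 min (0.21), 80 min (-0.20) and 120 min (0.18) stay in when these 3 are left out. Of the members 9 of 28 structural genes but 3 of 16 assembly genes have at most 300 bp, with median lengths of 402 and 871.5 bp. The structural lows at 110 and 180 min above fall in these libraries. Gene length includes introns, so QCR9, with a coding length of 201 bp, counts as over 300 bp. The contrast between the classes was similar among genes over 300 bp. There 10 of 19 structural genes, QCR9 among them, were lower late and 6 of 13 assembly genes higher, and the medians differed by -0.53. After the length correction they differed by -0.55, and without the 3 libraries by -0.63.

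**Figure D5:**
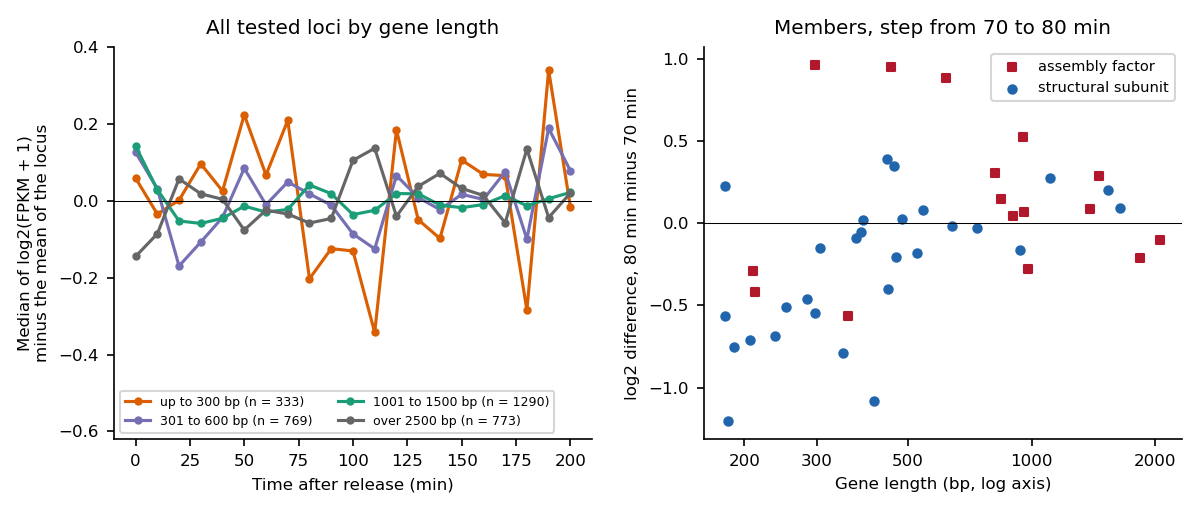
Left, the median deviation of log2(FPKM + 1) from each locus mean, for all tested loci in 4 classes of gene length, against time in minutes; right, the 70 to 80 min log2 difference of the 44 genes against gene length in bp on a log axis. Loci up to 300 bp go from 0.21 at 70 min to -0.20 at 80 min, and the structural genes of that length, with the exception of COX9, lie below 0.

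A list of 50 other genes of respiration and its assembly, chosen with earlier results known, gives the surroundings: 49 were in the table and 46 were tested. Of the 46, 24 (52.2%) changed over time, beside 44.8% of all loci, and 14 (30.4%) were at least 2-fold lower after 0 min, beside 18.8%. In the late libraries 17 (37.0%) were higher, beside 31.8% of all loci, and 7 (15.2%) lower, beside 26.7%. RIP1, the Rieske iron-sulfur subunit of complex III, was lower late (-0.72, adjusted p = 7.77e-05). So was TIM11, subunit e of ATP synthase (-0.56, adjusted p = 0.000274). The core subunit COR1 (-0.11) and cytochrome c1, CYT1 (-0.38), did not pass. Of the list's 5 tested ATP synthase genes 3 were higher late: STF1 (1.32, adjusted p = 1.32e-05), FMC1 (0.73, adjusted p = 0.000166) and STF2 (0.50, adjusted p = 0.00313). INH1 (-0.43) did not pass. In complex II SDH4 was higher (0.44, adjusted p = 0.0147) and 3 genes did not pass. Among NADH dehydrogenases NDI1 (0.47) and NDE2 (0.56, mean 1.43 FPKM) were higher and NDE1 (-0.41) was lower. Of the list's 23 tested assembly and expression factors 8 (34.8%) were higher late, beside 31.8% of all loci. The lower ones were 4 (17.4%), beside 26.7%, and 11 were not called. The higher ones included the complex IV factors SCO2 (0.85, adjusted p = 9.45e-05), SHY1 (0.82, adjusted p = 0.000201) and MSS51 (0.62, adjusted p = 0.000665). The 4 lower ones were AEP1 (-0.47, adjusted p = 0.000549), AEP2 (-0.31, adjusted p = 0.00312), the complex III factor CBP6 (-0.30, adjusted p = 0.0117) and PET309 (-0.20, adjusted p = 0.0147). COA2 (-0.18, adjusted p = 0.393), of complex IV, did not pass. The isoforms of cytochrome c parted as well: CYC7, the form of low oxygen, was higher late (1.26, adjusted p = 0.00084), and CYC1 (-0.14) did not pass. Of the transcription factors HAP4, the activating part of the Hap complex, was higher late by 0.28 (adjusted p = 0.0218) and HAP5 by 0.89 (adjusted p = 0.00276), while HAP2 (0.54), HAP3 (-0.08), HAP1 (0.15) and the hypoxic repressor ROX1 (0.04) did not pass.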

How the data were processed

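RNA of 21 time points from a single culture was sequenced as stranded mRNA libraries, per the labels' protocols. The submitters' processing notes name STAR, Cufflinks, Cuffnorm and build R64, without versions. The authors deposited FPKM scaled by Cuffnorm and added 1 to each value. That unit was inferred from the values and the tools, and the added 1 was subtracted. The 50 wild-type columns are not used here. Names of 6208 rows (87.1%) matched the R64 annotation, which gave coordinates and lengths. Whether the counting used the strand is not stated.

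Tests used limma 3.58.1 (R 4.3.3) on log2(FPKM + 1), moderated variances with a mean-variance trend, and Benjamini-Hochberg adjustment at 0.05 over the 6198 loci with a mean FPKM of at least 1. Fold changes on this scale understate those of low genes. Change over time was a natural cubic spline with 6 degrees of freedom and a fitted range of at least 1. Late (160 to 200 min) and early (20 to 60 min) windows held 5 libraries each. The COX5A to COX5B ratio had an exact permutation test. Libraries of successive times in a culture are not independent, so p-values measure only the spread between them and are too small. Scripts were tested on simulated data.

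The members, role classes and lists were chosen with earlier results of these data known. Genes named with full values were the isoforms COX5A and COX5B, the mitochondrially encoded genes, up to 4 members per class with the largest called range (or up to 2 where none was called), up to 2 per class and direction with the largest called difference, and each class's highest and lowest mean; others named, and the 70 to 80 min and 80 and 120 min patterns, were chosen after their values were seen. Alternatives were other pseudocounts, filters, scalings, splines and windows, leaving out each library, and, added after seeing the data, a correction for gene length (a lowess curve of span 0.3 over log10 length) and leaving out the libraries at 110, 180 and 190 min. Promoters were 300 bases before and downstream windows 200 bases after each coding sequence.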

Additional observations from a re-analysis of the deposited data

How the results depend on the processing

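The class contrast kept its direction under all settings run, with a late minus early difference between structural and assembly medians of -0.64 to -0.52 over the single omissions of a library and of -0.38 with windows of 10 to 100 and 110 to 200 min, where 5 members were higher late. With libraries rescaled to the same sum of FPKM, 18 members were higher and 10 lower late, the structural and assembly medians were -0.11 and 0.50, and 5 members were at least 2-fold lower after 0 min; the differences of ATP18 (0.067), ATP4 (0.13), COX9 (0.065), ATP3 (0.211), ATP25 (0.192), COX10 (0.093) and COX14 (0.194), not called in either fit, changed sign, as did those of ATP7 (0.23), ATP16 (0.263) and COX16 (0.266), which were then called higher. COX9 also did with windows of 20 to 40 and 180 to 200 min (0.013), and QCR6 with the wider windows (-0.055) and without 190 min (-0.017; 0.212 at most over the single omissions). Other members near 0, none of them called, also changed sign: ATP14 (-0.0034), ATP7 (0.0017) and COX16 (0.031) with the wider windows, ATP7 (0.017), ATP16 (0.0703), ATP3 (0.0093) and COX16 (0.106) with the narrower ones, COX15 (-0.025) after the length correction, and ATP16 (0.037) without the 3 libraries. Over single omissions ATP16 lay between -0.083 and 0.033, COX11 was -0.0203 at its lowest, COX14 lay between -0.23 and 0.113, COX15 between -0.072 and 0.081 and COX16 between -0.087 and 0.056. Members called over time were 9 without 0 and 10 min. The length correction gave 5 members 2-fold lower after 0 min and 3 lower from 70 to 80 min. With means in place of medians the structural minus assembly difference from 0 min to 20 to 40 min was 0.17 in place of -0.06. The cause of these shifts was not tested. Over single omissions, members called over time numbered 10 to 18, members higher late 7 to 8 and lower late 13 to 16, members 2-fold lower after 0 min 7 to 8, structural medians lay between -0.44 and -0.32 and assembly medians between 0.17 and 0.24, and the COX5 log2 ratio differed by -1.09 to -0.78 (exact permutation p from 0.00794 to 0.0317). Over all loci, 2775 were called over time, 1837 with a pseudocount of 10 and 1728 without 0 and 10 min. No paired analysis was possible because each time point has 1 library. Depth is unknown, so counting error cannot be given.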
